A study of Mus musculus with 18 samples.

Results

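The mRNA levels of 9 lipid droplet genes, of 55098 genes measured, were followed through 18 RNA-seq libraries of mouse 2-cell embryos. The genes were Cidea, the droplet coat genes Plin2 and Plin3, the triglyceride synthesis genes Dgat1 and Dgat2, the lipase genes Pnpla2, Lipe and Mgll, and the fatty acid carrier gene Fabp5. They were chosen by name with FPKM results of these same libraries in view, and which value chose each gene is not recorded. Levels are given in FPKM, fragments per kilobase of exon and relative to the depth of the library. Cidea stood out by its level across the siRNA groups, so its values are given as a description with no test. Mgll, and in the treatment experiment Dgat1 and Dgat2 too, reached the filter on low values, set out below, only through the group where they were highest, so they too are described with no test. The tests of the other genes come from fits across all genes, and because of the way the genes were chosen they are not independent evidence.

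A lipid droplet is a core of triglyceride and sterol ester inside a single layer of phospholipid, on which coat proteins sit. DGAT enzymes in the endoplasmic reticulum make the triglyceride that fills it, perilipins cover its surface and restrain lipases, and CIDE proteins let droplets exchange lipid and fuse into larger ones. Fatty acids are released again by a chain of 3 lipases, and oocytes carry droplets into the embryo as a maternal store.

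The libraries fell into 7 groups of whole embryos. In the siRNA experiment, embryos labelled siEchs1 and embryos labelled siCon were collected at E2C and at L2C, with 3 libraries in each of these 4 groups. Echs1 encodes the mitochondrial short-chain enoyl-CoA hydratase, which acts in fatty acid oxidation and uses crotonyl-CoA as a substrate. In the treatment experiment, embryos with the genotype label WT were collected at E2C after sodium crotonate, sodium acetate or DMSO, with 2 libraries each. Zygotes were treated and E2C stands for the early 2-cell stage in the series' design text, whereas L2C is not spelled out. Each library came from a pool of 5 to 10 embryos, amplified from polyA RNA by Smart-seq2. Neither strain nor age is stated in the labels, nor are doses, the way the siRNA was delivered or its sequence. Nothing in the labels says that the libraries of a group came from separate matings or cultures, so the p-values reflect the spread among these libraries only, and that spread may be technical. In such pools, fewer cells with a transcript and less transcript per cell cannot be told apart.

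Plin2 and Pnpla2 were the coat gene and the lipase gene that changed in opposite directions in siEchs1 embryos at L2C, and their promoters are shown for that reason. Each window runs from 250 bases before the RefSeq start to 50 bases after it, in build GRCm38.p6. Capitals mark the letters of 3 short motifs searched on both strands, namely the GC box GGGCGG, the E-box CACGTG and the nuclear receptor site AGGTCA, with overlapping matches counted separately. The Plin2 window lies at chr4:86670010-86670309 on the minus strand and the Pnpla2 window at chr7:141454938-141455237 on the plus strand, both written 5′ to 3′ along the gene.
Plin2: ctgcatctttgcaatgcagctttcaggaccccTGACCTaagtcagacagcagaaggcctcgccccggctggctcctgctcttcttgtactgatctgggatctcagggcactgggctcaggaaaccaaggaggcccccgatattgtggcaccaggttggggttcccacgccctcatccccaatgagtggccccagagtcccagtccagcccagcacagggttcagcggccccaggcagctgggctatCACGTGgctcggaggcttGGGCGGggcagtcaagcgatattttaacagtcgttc
Pnpla2: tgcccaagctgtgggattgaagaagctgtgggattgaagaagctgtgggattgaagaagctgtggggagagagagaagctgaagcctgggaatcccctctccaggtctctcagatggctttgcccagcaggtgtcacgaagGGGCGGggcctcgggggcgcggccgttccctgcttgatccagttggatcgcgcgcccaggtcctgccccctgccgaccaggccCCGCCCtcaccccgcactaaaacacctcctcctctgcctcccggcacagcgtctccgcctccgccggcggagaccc
The Plin2 window had a G+C content of 60.7% and held 1 GC box, 1 E-box and 1 receptor site, the last of these on the opposite strand. The Pnpla2 window had a G+C content of 65.3% and held 2 GC boxes, 1 on each strand, and no match to the other motifs. Of 32851 RefSeq promoter windows of the same length, 35.7% held the GC box, 7.2% the E-box and 16.3% the receptor site, and the median G+C content was 52.7%. In all, 5 of the 9 genes matched the promoter table, with 7 windows. The Plin3 window held 3 GC boxes, 1 of the Lipe windows held 6 GC boxes and 1 E-box, and each of the Mgll windows held 1 GC box. An E-box was also found in 1 of the Mgll windows. The letters describe these windows only and show nothing about the binding of a factor.

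The siRNA target itself was low in every siEchs1 library. Echs1 was at 3.47 ± 2.60 FPKM in siEchs1 and 30.2 ± 2.54 FPKM in siCon at E2C, and at 3.15 ± 1.96 FPKM in siEchs1 and 34.1 ± 8.35 FPKM in siCon at L2C (SD, n = 3 each). Read totals were not analysed here, and a rough estimate from the steps between low values put the libraries at 9420000 to 23460000 fragments. The siEchs1 E2C replicate 3 stood apart, with 10.4% of its FPKM on mitochondrial transcripts against 2.83% and 1.70% in the other siEchs1 E2C libraries, and 13.1% to 17.1% in siCon E2C. At L2C the mitochondrial share was 0.834% to 2.28% in siEchs1 and 7.62% to 11.2% in siCon. Zp3, Mos and Gdf9, genes of the growing oocyte, set the same library apart. Zp3 was at 35.9 FPKM in siEchs1 E2C replicate 3 against 3071 and 3622 FPKM in the other siEchs1 E2C libraries, and at 28.0 to 36.7 FPKM in siCon E2C. Mos was at 7.7 FPKM in that replicate against 676 and 808 FPKM in the other siEchs1 E2C libraries, and at 4.8 to 5.96 FPKM in siCon E2C. Gdf9 was at 292 FPKM in it against 1627 and 3903 FPKM in the others, and at 179 to 207 FPKM in siCon E2C. In these 3 genes the replicate lay near the siCon libraries, although its Echs1 was as low as in its group, and the part of this in the results that rest on it was not tested. A list of 25 oocyte transcripts summed to 36585 to 42403 FPKM in siEchs1 L2C and 7450 to 8704 FPKM in siCon L2C. In that comparison 21 of its members were called higher and 0 lower, against 21.9% and 26.9% of all genes. A list of 25 transient 2-cell genes summed to 587 to 814 FPKM in siEchs1 L2C and 2383 to 3118 FPKM in siCon L2C. Of these 25 genes, 2 were called higher and 21 lower. At E2C the oocyte transcripts summed to 24549 to 46635 FPKM in siEchs1 and 35167 to 37610 FPKM in siCon. Of the 25, 17 were called higher and 3 lower, against 11% and 9.31% of all genes. The transient 2-cell genes summed to 1335 to 1693 FPKM in siEchs1 E2C and 2555 to 2865 FPKM in siCon E2C, and 15 of the 25 were called lower and 0 higher. The siEchs1 and siCon embryos therefore differed in stage-marking transcripts at both stages throughout the values below, and the part of this difference in each result was not tested.

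**Figure D1:**
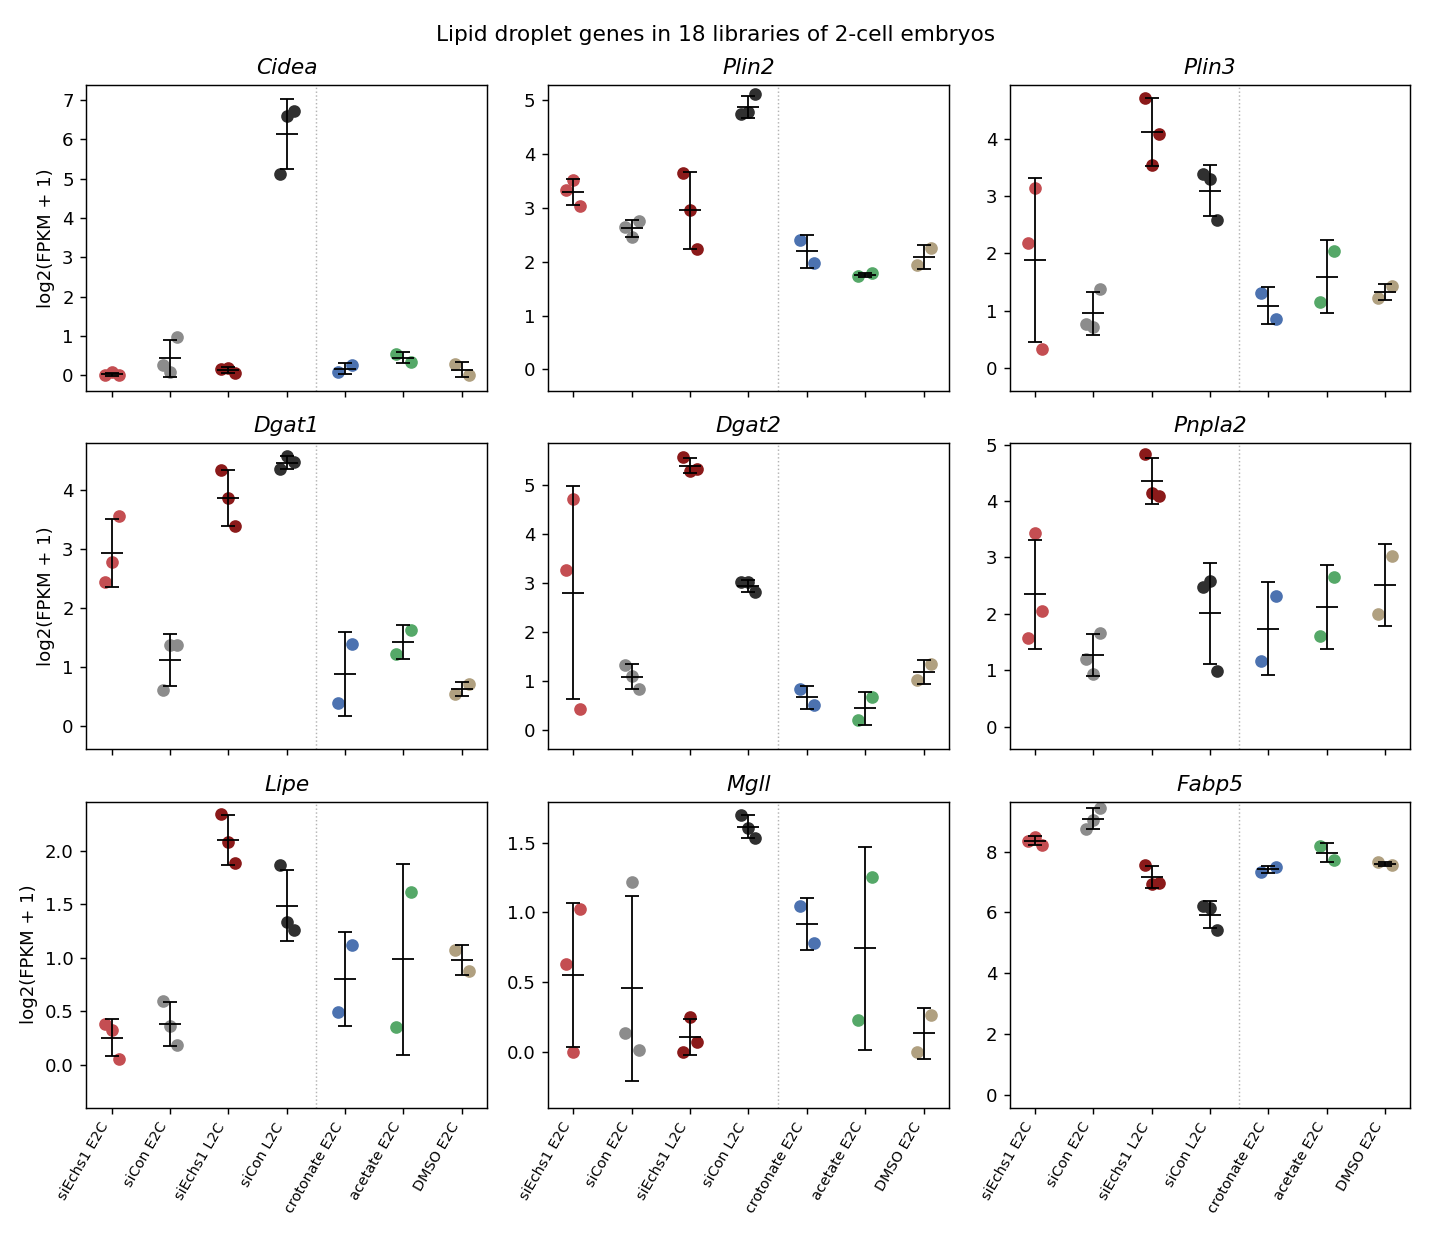
Level of each of the 9 genes as log2(FPKM + 1) in every library, by group, with points for libraries, the long dash for the group mean and bars for 1 SD. The dotted line separates the siRNA experiment (n = 3 a group) from the treatment experiment (n = 2 a group). Cidea lies above 33 FPKM in the 3 siCon L2C libraries and below 1 FPKM in the other 15.

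Cidea (chromosome 18, 67343604 to 67367785, plus strand, mm10 with the GENCODE M21 annotation, as for the genes below) encodes a CIDE family protein of the droplet surface, known from brown fat and liver, that promotes droplet fusion. Its mRNA was abundant in a single group. In siEchs1 L2C embryos it was at 0.11, 0.14 and 0.04 FPKM, against 33.68, 95.32 and 104.55 FPKM in siCon L2C embryos. In siEchs1 E2C embryos it was listed at 0, 0.05 and 0 FPKM, against 0.19, 0.05 and 0.95 FPKM in siCon E2C embryos. The 3 siCon L2C libraries were thus high, with replicate 1 the lowest of them, and the siEchs1 libraries of both stages were near the lowest values that can be measured. By the rough depth estimate, 1 fragment of Cidea corresponds to 0.038 to 0.095 FPKM, so the siEchs1 values stand for few fragments and no fold is given. On the log2(FPKM + 1) scale the mean was -6.01 in siEchs1 relative to siCon at L2C, 5.71 in siCon L2C relative to siCon E2C, and -0.40 in siEchs1 relative to siCon at E2C. The size of all 3 depended on the constant added before the logarithm. With a constant of 0.1 they were -8.50, 7.61 and -1.64 in the same order. Cidea passed the filter on low values only through the siCon L2C libraries.

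Plin2 (chromosome 4, 86648386 to 86670060, minus strand) encodes the perilipin that coats droplets in most cell types. In siEchs1 L2C embryos Plin2 was at 11.6, 6.81 and 3.71 FPKM, against 25.65, 26.49 and 33.59 FPKM in siCon L2C embryos. Every siEchs1 library lay below every siCon library at that stage, and the log2 difference was -1.92 (SE 0.36, adjusted p = 0.000986). At E2C the order was the other way, with 9.02, 10.48 and 7.19 FPKM in siEchs1 against 5.25, 4.49 and 5.78 FPKM in siCon. Those groups did not overlap either, but the log2 difference of 0.67 (SE 0.36) did not pass the test (adjusted p = 0.206). The siRNA effect differed between the stages by -2.60 (SE 0.51, adjusted p = 0.00793). Plin2 was 2.26 higher in siCon L2C than in siCon E2C on the log2 scale (SE 0.36, adjusted p = 0.000276). In siEchs1 embryos the stage difference was -0.34 (SE 0.36, adjusted p = 0.597), with overlapping groups.

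Plin3 (chromosome 17, 56277476 to 56292873, minus strand) encodes an exchangeable perilipin that moves from the cytosol onto young droplets. It was at 25.27, 10.58 and 15.93 FPKM in siEchs1 L2C and at 9.47, 8.86 and 5.01 FPKM in siCon L2C. The groups did not overlap, yet the log2 difference of 1.02 (SE 0.60) did not pass (adjusted p = 0.175). It passed when siEchs1 E2C replicate 3 was left out (adjusted p = 0.0366) and when the L2C groups were fitted alone (adjusted p = 0.0414). That replicate, the one near siCon in Zp3, Mos and Gdf9, had 0.26 FPKM of Plin3, against 3.52 and 7.81 FPKM in the other siEchs1 E2C libraries and 0.7, 0.64 and 1.61 FPKM in siCon E2C. The E2C difference was 0.93 (SE 0.60, adjusted p = 0.293) with all libraries and 1.70 without that replicate (adjusted p = 0.0076). Plin3 was 2.14 higher at L2C than at E2C in siCon embryos (SE 0.60, adjusted p = 0.00992) and 2.23 higher in siEchs1 embryos (SE 0.60, adjusted p = 0.0261). The siEchs1 call was lost without siEchs1 L2C replicate 1 (adjusted p = 0.113) or 3 (adjusted p = 0.0651).

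Dgat1 and Dgat2 encode unrelated enzymes that both add the last acyl chain to make triglyceride. Dgat1 was the only gene of the set called at E2C. Dgat1 lies on chromosome 15 (76502015 to 76511953, minus strand). It was at 4.42, 5.91 and 10.89 FPKM in siEchs1 E2C and at 0.53, 1.58 and 1.58 FPKM in siCon E2C. All siEchs1 libraries lay above all siCon libraries, with a log2 difference of 1.82 (SE 0.38, adjusted p = 0.00679). The value furthest from siCon, 10.89 FPKM, was that of replicate 3, the library near siCon in Zp3, Mos and Gdf9. At L2C, Dgat1 was at 19.23, 13.59 and 9.46 FPKM in siEchs1 and at 19.6, 22.92 and 21.22 FPKM in siCon. These L2C groups were next to each other without overlap and their log2 difference of -0.61 (SE 0.38) did not pass (adjusted p = 0.204). The effects at the 2 stages differed by -2.43 (SE 0.54, adjusted p = 0.0131). In siCon embryos Dgat1 had the largest stage difference of the 7 tested genes, 3.36 higher at L2C than at E2C (SE 0.38, adjusted p = 2.69e-05), and in siEchs1 embryos the difference was 0.93 (SE 0.38, adjusted p = 0.128). That stage difference in siEchs1 embryos passed without siEchs1 E2C replicate 3, where it was 1.25 (adjusted p = 0.0257).

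Dgat2 (chromosome 7, 99153658 to 99182719, minus strand) showed another pattern. It was at 46.88, 37.8 and 39.36 FPKM in siEchs1 L2C and at 7.06, 7.1 and 5.99 FPKM in siCon L2C. The ratio of the group means was 6.16, the groups were far apart, and the log2 difference was 2.45 (SE 0.76, adjusted p = 0.0182). The SE is the one shared by the 4 siRNA groups, of which siEchs1 E2C was widely spread, between 0.35 and 25.32 FPKM. The call was lost without siCon L2C replicate 3 (adjusted p = 0.054), without siEchs1 L2C replicate 1 (adjusted p = 0.0518) and with a constant of 0.1 before the logarithm (adjusted p = 0.0615). At E2C, Dgat2 was at 8.56, 25.32 and 0.35 FPKM in siEchs1 and at 1.51, 1.14 and 0.77 FPKM in siCon. Here 2 siEchs1 libraries were high and replicate 3, the library with siCon-like Zp3, Mos and Gdf9, was the lowest of all 6, and the difference of 1.72 (SE 0.76) did not pass (adjusted p = 0.129). Without replicate 3 it was 2.90 (adjusted p = 8.38e-05). Dgat2 was 1.86 higher in siCon L2C than in siCon E2C (SE 0.76, adjusted p = 0.0583), which passed without siEchs1 E2C replicate 2 (adjusted p = 0.0161) or 3 (adjusted p = 0.000405). In siEchs1 embryos the stage difference of 2.60 passed (SE 0.76, adjusted p = 0.0386), and that call was lost when any one of 9 of the 12 libraries was left out (adjusted p up to 0.121).

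The 3 lipases act one after another on triglyceride, diglyceride and monoglyceride. Pnpla2 (chromosome 7, 141455198 to 141460743, plus strand) encodes adipose triglyceride lipase, which takes the first step. It was at 27.37, 16.71 and 15.98 FPKM in siEchs1 L2C and at 4.55, 4.98 and 0.97 FPKM in siCon L2C. No library of one group reached the other, and the log2 difference was 2.34 (SE 0.53, adjusted p = 0.0033). At E2C it was at 1.96, 9.75 and 3.15 FPKM in siEchs1 and at 1.31, 0.9 and 2.18 FPKM in siCon, overlapping groups whose difference of 1.08 (SE 0.53) did not pass (adjusted p = 0.17). In siCon embryos the stage difference of Pnpla2 was 0.74 (SE 0.53, adjusted p = 0.266). In siEchs1 embryos it was 2.00 (SE 0.53, adjusted p = 0.0254), a call that was lost without siEchs1 E2C replicate 1 (adjusted p = 0.0794) or without any single siEchs1 L2C library (adjusted p up to 0.109).

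Lipe (chromosome 7, 25379527 to 25398710, minus strand) encodes hormone-sensitive lipase, the main diglyceride lipase. It was at 4.09, 3.23 and 2.69 FPKM in siEchs1 L2C and at 2.66, 1.53 and 1.39 FPKM in siCon L2C. The lowest siEchs1 value lay just above the highest siCon value, and the difference of 0.61 (SE 0.27) did not pass (adjusted p = 0.0795) except without siCon L2C replicate 1 (adjusted p = 0.0447) or after quantile normalization (adjusted p = 0.0188). At E2C, Lipe was below 1 FPKM in all 6 siRNA libraries, between 0.04 and 0.3 FPKM in siEchs1 and between 0.14 and 0.51 FPKM in siCon. It was 1.85 higher at L2C than at E2C in siEchs1 embryos (SE 0.27, adjusted p = 0.00128) and 1.11 higher in siCon embryos (SE 0.27, adjusted p = 0.00494), the siCon call being lost after quantile normalization (adjusted p = 0.0596). Among the siRNA libraries Lipe reached 1 FPKM at L2C only, so it passed the filter through the L2C groups. A higher level at L2C was thereby built in, and these p-values are no evidence of a stage difference. An antisense gene, 4732471J01Rik, shares 15.6% of the Lipe exon bases, and the values keep no strand, so reads of the 2 genes cannot be told apart there.

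Mgll (chromosome 6, 88724412 to 88828360, plus strand) encodes monoglyceride lipase, the last enzyme of the chain. It was at 0, 0.19 and 0.05 FPKM in siEchs1 L2C, against 2.25, 2.05 and 1.9 FPKM in siCon L2C. The groups were separate, both levels were low, and the log2 difference was -1.51. That difference was -3.73 with a constant of 0.1 before the logarithm and -1.18 after quantile normalization. At E2C the libraries ranged between 0 and 1.03 FPKM in siEchs1 and between 0.01 and 1.33 FPKM in siCon, with no order between the groups. Among the siRNA libraries outside siCon L2C it reached 1 FPKM in 2 only. It thus passed the filter through siCon L2C, and a difference that involves that group is given with no test. The mean of Mgll was 4.31 times higher in siCon L2C than in siCon E2C. The antisense gene Gm26588 shares 3.3% of the Mgll exon bases.

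Fabp5 (chromosome 3, 10012548 to 10016607, plus strand) encodes a cytosolic fatty acid binding protein and was the most abundant of the 9 transcripts in every E2C library. It was at 328.01, 359.12 and 293.43 FPKM in siEchs1 E2C and at 430.07, 526.21 and 693.82 FPKM in siCon E2C. All siEchs1 libraries were below all siCon libraries, but the log2 difference of -0.73 (SE 0.32) did not pass (adjusted p = 0.129). At L2C the order turned, with 188.21, 120.09 and 124.92 FPKM in siEchs1 against 73.93, 69.15 and 42.05 FPKM in siCon. That difference was 1.22 (SE 0.32, adjusted p = 0.0076), and the 2 effects differed by 1.95 (SE 0.45, adjusted p = 0.0155). Fabp5 fell by 3.15 on the log2 scale in siCon L2C relative to siCon E2C (SE 0.32, adjusted p = 1.47e-05). In siEchs1 embryos it fell by 1.20 (SE 0.32, adjusted p = 0.0263), a call that was lost without siEchs1 E2C replicate 1 or 2 or siEchs1 L2C replicate 2 or 3 (adjusted p up to 0.1). A processed pseudogene, Fabp5l2, was listed at 0 in all 18 libraries, and how reads that fit both were counted is not stated.

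The 7 groups were also ordered by mean level for each gene. Levels of the siRNA and treatment experiments were set side by side without a test, since their tables were deposited separately. How many of all genes have groups that lie apart in this way was not counted, so the orders only describe these genes. For Cidea, siCon L2C at 77.9 FPKM stood apart, and the next groups, siCon E2C at 0.397 FPKM and acetate E2C at 0.365 FPKM, overlapped. For Plin2, siCon L2C at 28.6 FPKM stood apart from siEchs1 E2C at 8.90 FPKM, and siEchs1 E2C, siEchs1 L2C and siCon E2C overlapped one after the other. For Dgat1, siCon L2C at 21.2 FPKM and siEchs1 L2C at 14.1 FPKM came first, and siEchs1 E2C at 7.07 FPKM overlapped siEchs1 L2C and lay above every other E2C group. The highest group of Plin3, Dgat2, Pnpla2 and Lipe was siEchs1 L2C, and in each of them it did not overlap the next group. That next group was siCon L2C for Plin3 and Lipe, siEchs1 E2C for Dgat2 and DMSO E2C for Pnpla2. For Mgll, siCon L2C came first at 2.07 FPKM without overlap, and the other 6 groups overlapped their neighbours. Fabp5 had the reverse order of stages, with siCon E2C at 550 FPKM first and siCon L2C at 61.7 FPKM last, each apart from its neighbour.

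**Figure D2:**
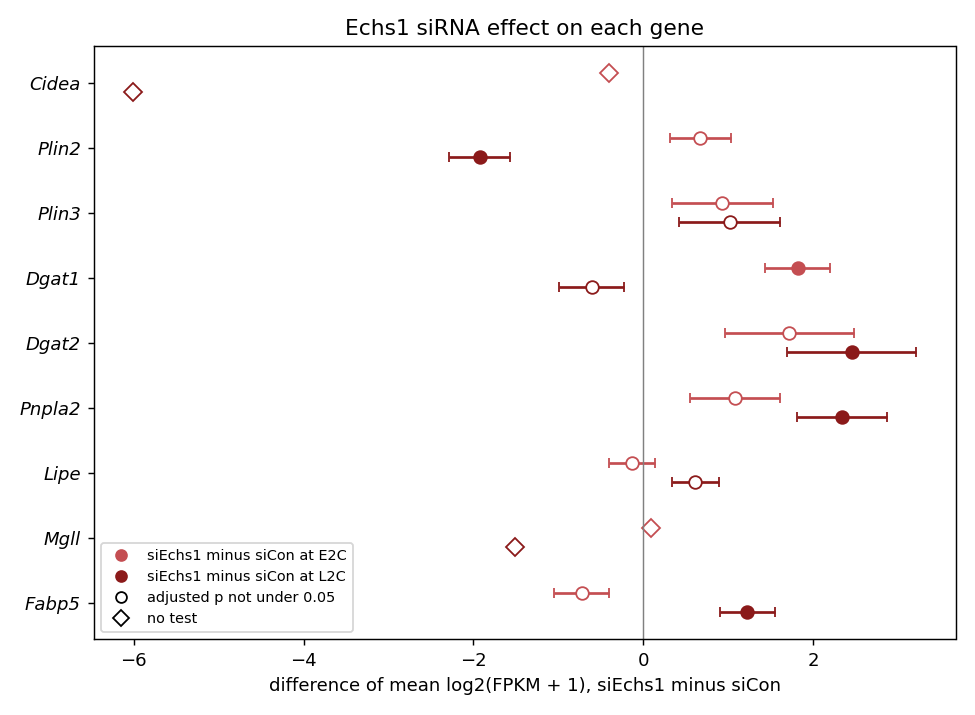
Difference of mean log2(FPKM + 1), siEchs1 minus siCon, for each gene at E2C (light) and L2C (dark). Bars show 1 SE of the fit, filled points have an adjusted p under 0.05, and diamonds mark Cidea and Mgll, which were not tested. Plin2, Dgat1, Lipe, Mgll and Fabp5 lie on opposite sides of 0 at the 2 stages, Plin3, Dgat2 and Pnpla2 above 0 at both, and Cidea below 0 at both, while Lipe at E2C turns to 0.041 after quantile normalization. Mgll at E2C, at 0.094, spans -0.14 to 0.48 when single libraries are left out.

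All 9 genes passed the filter on low values, 1 FPKM or more in 3 or more of the siRNA libraries, Cidea and Mgll only through siCon L2C. The other 7 would have passed it without their highest group and are counted here. At L2C, 3 of the 7 were called higher in siEchs1 (Dgat2, Pnpla2 and Fabp5) and 1 lower (Plin2), while of the 17652 genes tested 21.9% were called higher and 26.9% lower. The median log2 difference was 1.02 over the 7 genes and -0.08 over all genes. At E2C, 1 of the 7 was called higher and 0 lower, against 11% of all genes higher and 9.31% lower, with medians of 0.93 for the 7 and 0.15 for all genes. The number called at E2C was 3 without siEchs1 E2C replicate 3. For the difference between the 2 effects, 1 of 7 was called higher and 2 lower, against 5.65% higher and 11.6% lower of all genes.

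The stage differences run over a moving background. In siCon embryos 4 of 7 genes were called higher at L2C and 1 lower, and 35.8% of all genes were called higher and 14.4% lower. The median over all genes was 0.51 in that comparison, -0.01 after quantile normalization and 0.76 after rescaling without mitochondrial and ribosomal RNA, and the median of the 7 genes was 1.86. In siEchs1 embryos 4 of 7 were called higher at L2C and 1 lower, against 11.8% and 2.73% of all genes, with medians of 1.85 for the 7 and 0.23 for all genes. That count of 5 called genes was between 1 and 6 when single libraries were left out, being 1 without siEchs1 L2C replicate 3 and 2 without siEchs1 L2C replicate 1 or 2 or siEchs1 E2C replicate 1. The siCon L2C and siEchs1 L2C libraries also enter the siRNA comparison at L2C, so these counts are not independent of each other. Both stage counts include Lipe, which passed the filter only through L2C libraries, so its higher level there was built in.

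The genes were compared with Cidea by Pearson's r of log2(FPKM + 1) over the 12 siRNA libraries. This is a description only, since the libraries form 4 groups and the 3 siCon L2C libraries set the value for Cidea. Plin2 was the most similar of the set with r = 0.89, followed by Mgll with 0.77, whereas r was -0.07 for Dgat2, -0.25 for Pnpla2 and -0.77 for Fabp5. Among 8711 other genes with a mean of at least 5 FPKM, Rab43, a small GTPase gene, came first with r = 0.986. It was at 1.30 FPKM in siEchs1 L2C, 23.7 FPKM in siCon L2C, 1.28 FPKM in siEchs1 E2C and 1.78 FPKM in siCon E2C. Hmgb3, which encodes a chromatin protein of the high mobility group, followed with 0.977, and was at 70.5 FPKM in siEchs1 L2C and 427 FPKM in siCon L2C. Phkg2 (a catalytic subunit of phosphorylase kinase), Suv39h1 (a histone H3 lysine methyltransferase) and Polr1b (a subunit of RNA polymerase I) had r of 0.975, 0.974 and 0.974. In each of these 5 genes all siCon L2C libraries lay above all other siRNA libraries.

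**Figure D3:**
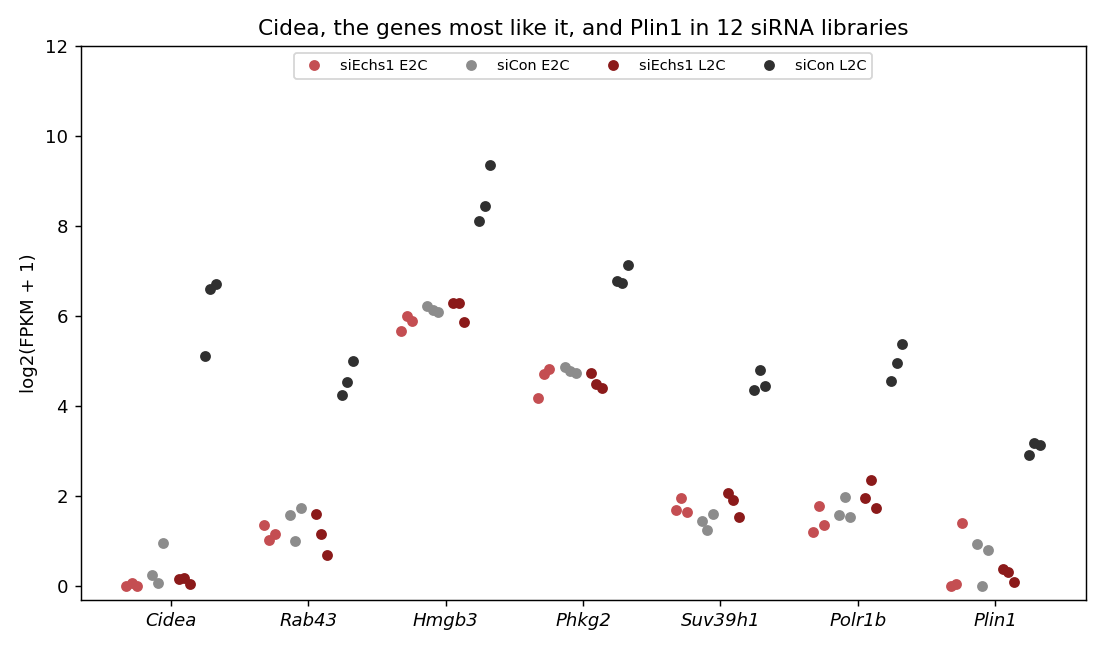
log2(FPKM + 1) of Cidea, of the 5 genes most like it by Pearson's r, and of Plin1, in each of the 12 siRNA libraries. Every gene is higher in each of the 3 siCon L2C libraries than in any of the other 9.

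The wider droplet pathway was described with 5 lists of 81 genes, none of them among the 9, of which 63 were tested in the siRNA experiment. At L2C, 19 of the 63 (30.2%) were called higher in siEchs1 and 16 (25.4%) lower, against 21.9% and 26.9% of all genes. Of the 63, 9 passed the filter only through their highest group, so that calls involving that group were built in, and of the other 54, 17 were called higher and 12 lower. In the list of CIDE and coat proteins, 9 of 15 genes were tested, and 2 were higher and 4 lower. Without the gene that passed through a single group, 2 of 8 were higher and 3 lower. Plin1, the perilipin of fat cells, is 1 of the 9 genes that passed through a single group and is given with no test. It was at 0.2 ± 0.12 FPKM in siEchs1 L2C and 7.45 ± 0.81 FPKM in siCon L2C (SD, n = 3 each). Outside siCon L2C it was above 1 FPKM in 1 siRNA library only, siEchs1 E2C replicate 3 at 1.64 FPKM. Hilpda, which encodes a droplet protein that inhibits adipose triglyceride lipase, was at 21.8 ± 6.70 FPKM in siEchs1 L2C and 70.4 ± 20.1 FPKM in siCon L2C (adjusted p = 0.00491).

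Of the lipolysis list, 8 of 12 genes were tested, and 4 were higher and 1 lower in siEchs1 L2C. Of all genes, 21.9% were called higher and 26.9% lower in that comparison. Of the 6 lipolysis genes that did not pass the filter through a single group, 3 were higher and 1 lower. Daglb, a diacylglycerol lipase gene, was at 75.0 ± 15.03 FPKM in siEchs1 L2C and 4.62 ± 1.07 FPKM in siCon L2C (adjusted p = 8.41e-05). Pnpla3, a relative of Pnpla2, was at 73.2 ± 27.4 FPKM in siEchs1 L2C and 12.8 ± 5.37 FPKM in siCon L2C (adjusted p = 0.0341), and Nceh1, a cholesterol ester hydrolase gene, at 82.2 ± 13.6 FPKM in siEchs1 L2C and 17.0 ± 4.77 FPKM in siCon L2C (adjusted p = 0.00034). The one that was lower was Abhd6, another monoglyceride lipase gene, at 43.8 ± 6.31 FPKM in siEchs1 L2C and 188.5 ± 93.8 FPKM in siCon L2C (adjusted p = 0.0031). Pnpla2 and its relative Pnpla3 were thus both higher in siEchs1 L2C embryos.

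Of the list of droplet formation at the endoplasmic reticulum, 14 of 15 genes were tested. Of these, 5 were higher and 1 lower in siEchs1 L2C, against 21.9% and 26.9% of all genes. Bscl2, which encodes seipin, a protein of droplet assembly sites, was at 237.9 ± 60.3 FPKM in siEchs1 L2C and 87.6 ± 28.9 FPKM in siCon L2C (adjusted p = 0.0101). Of the list of glycerolipid and sterol ester synthesis, 15 of 17 were tested, and 5 were higher and 3 lower. Of the 11 of them that did not pass the filter through a single group, 4 were higher and 1 lower. Lpin2, a phosphatidate phosphatase gene, was at 87.8 ± 3.62 FPKM in siEchs1 L2C and 21.9 ± 5.54 FPKM in siCon L2C (adjusted p = 0.000314), and Agpat2, an acyltransferase gene, at 74.4 ± 19.3 FPKM in siEchs1 L2C and 16.0 ± 9.19 FPKM in siCon L2C (adjusted p = 0.00737). Of the list of fatty acid uptake, binding and activation, 17 of 22 were tested, and 3 were higher and 7 lower. Without the genes that passed the filter through a single group, 3 of 15 were higher and 6 lower. Slc27a5, from the 15, was at 0.9 ± 0.75 FPKM in siEchs1 L2C and 16.5 ± 6.81 FPKM in siCon L2C (adjusted p = 0.000123).

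At E2C, 11 of the 63 (17.5%) were called higher in siEchs1 and 4 (6.35%) lower, against 11% and 9.31% of all genes, and all 15 were among the 54 genes. Daglb was again among them, at 27.2 ± 16.4 FPKM in siEchs1 E2C and 3.61 ± 0.22 FPKM in siCon E2C (adjusted p = 0.00318). Hsd17b13, a droplet enzyme gene best known from liver, was at 14.997 ± 13.8 FPKM in siEchs1 E2C and 70.7 ± 7.81 FPKM in siCon E2C (adjusted p = 0.00512). Dbi, which encodes the acyl-CoA binding protein, was at 399 ± 133 FPKM in siEchs1 E2C and 982 ± 103 FPKM in siCon E2C (adjusted p = 0.0112). Between the stages of siCon embryos, 23 of 63 (36.5%) were higher at L2C and 6 (9.52%) lower, against 35.8% and 14.4% of all genes, or 19 higher and 6 lower of the 54. Agpat1 was at 49.7 ± 18.6 FPKM in siCon L2C and 3.64 ± 0.74 FPKM in siCon E2C (adjusted p = 0.000181), and Cd36, a fatty acid transporter gene, at 16.4 ± 9.16 FPKM in siCon L2C and 72.8 ± 10.8 FPKM in siCon E2C (adjusted p = 0.00101). Plin1, with no test, was at 7.45 ± 0.81 FPKM in siCon L2C and 0.553 ± 0.49 FPKM in siCon E2C. Between the stages of siEchs1 embryos, 10 of 63 (15.9%) were higher at L2C and 2 (3.17%) lower, against 11.8% and 2.73% of all genes, or 8 higher and 2 lower of the 54.

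**Figure D4:**
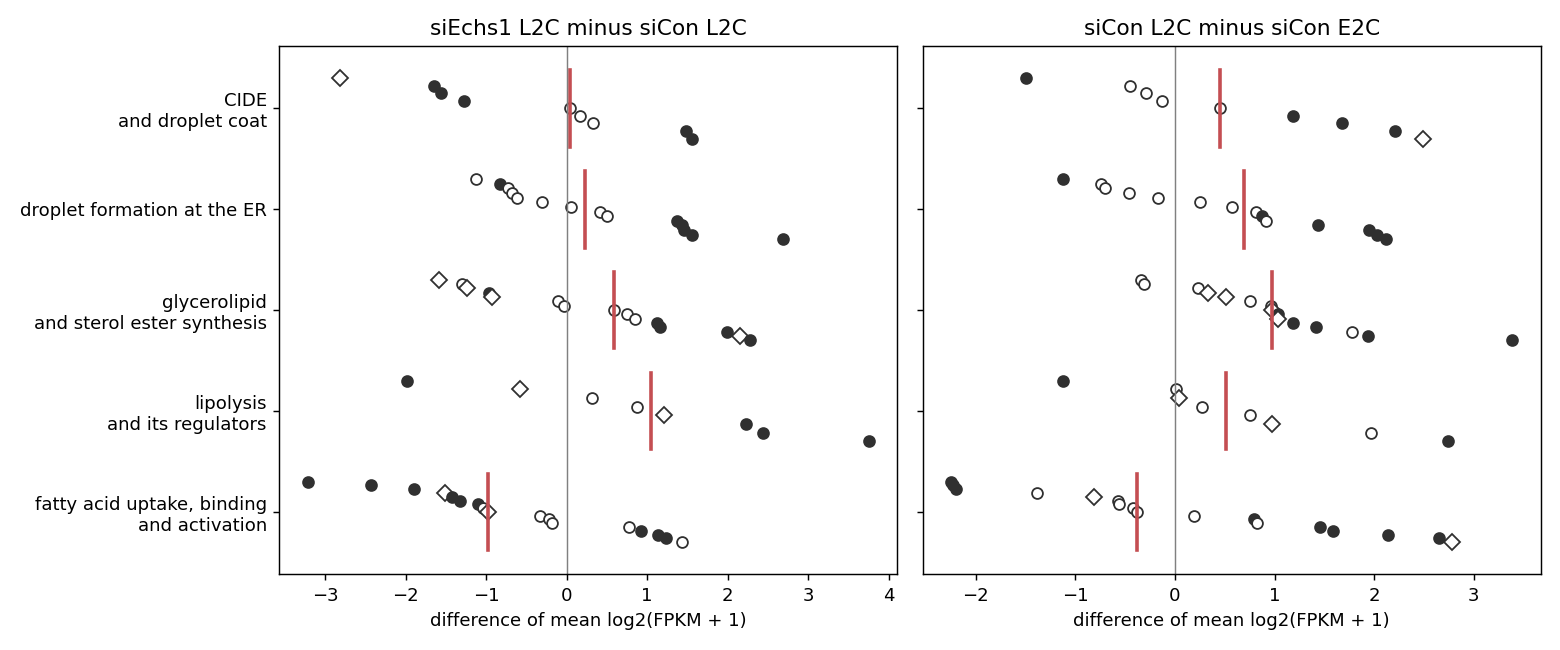
Differences of mean log2(FPKM + 1) for the tested genes of the 5 pathway lists, 1 point a gene, in siEchs1 L2C minus siCon L2C (left) and siCon L2C minus siCon E2C (right). Filled points have an adjusted p under 0.05, and diamonds mark genes that passed the filter only through their highest group. The red bar is the median of the list, diamonds included. In the left panel the list of lipolysis has its median at 1.05 and the list of fatty acid uptake, binding and activation at -0.98.

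Several of the coat genes are markers of fat cells, so the other fat cell markers were checked. The list of 12 adipocyte markers summed to 42.0 to 45.6 FPKM in siEchs1 L2C and 30.2 to 64.6 FPKM in siCon L2C, and 1 of its 6 tested members was called higher and 1 lower in siEchs1. Lep and Cfd were at 0 in 17 of 18 libraries, and Adipoq and Ucp1 did not exceed 1.96 and 1.06 FPKM in any. Other members were well above that, with highest values of 33.59 FPKM for Pparg, 28.54 FPKM for Retn, 23.84 FPKM for Adipor2 and 19.81 FPKM for Lpl. Pparg was at 12.64 to 20.99 FPKM in siEchs1 L2C and 0.28 to 1.18 FPKM in siCon L2C. The member counted as lower was Plin1, which passed the filter only through siCon L2C. Plin1, Lpl, Fabp4 and Cidec belong to that list and also to the pathway lists. Summed levels of markers of other cells also differed between the L2C groups. The 7 blood markers summed to 6.65 to 21.7 FPKM in siEchs1 L2C and 100.3 to 131 FPKM in siCon L2C, with 2 of 3 tested members lower in siEchs1. Most of the siCon L2C sum was Hba-a1 and Hba-a2, with means of 92.9 and 19.1 FPKM. Hbb-bs, Hbb-bt, Alas2 and Ptprc had means of 0.253, 0.113, 0.167 and 0.0633 FPKM there. The 8 oviduct markers summed to 5.87 to 37.3 FPKM in siEchs1 L2C and 128 to 188 FPKM in siCon L2C. Of these markers, 2 of 4 tested were lower, or 1 of the 3 that did not pass the filter through a single group. Epcam, with a mean of 145.8 FPKM, made up most of the oviduct sum in siCon L2C. Krt8 went the other way, with means of 8.81 FPKM in siEchs1 L2C and 2.16 FPKM in siCon L2C. The 14 cumulus markers summed to 8.28 to 11.2 FPKM in siEchs1 L2C and 14.4 to 34.1 FPKM in siCon L2C, and the 12 sperm markers to 105 to 136 FPKM in siEchs1 L2C and 60.7 to 103 FPKM in siCon L2C. Of the tested members, 1 of 3 cumulus markers was called higher and 2 lower, and 1 of 8 sperm markers lower. Gja1 had the highest mean of the cumulus markers in siCon L2C, 16.8 FPKM against 0.62 FPKM in siEchs1 L2C. Cyp19a1 went the other way, with means of 0.987 FPKM in siCon L2C and 5.75 FPKM in siEchs1 L2C. Of the 6 sperm markers that did not pass the filter through a single group, 0 were called lower. Of all genes, 21.9% were called higher and 26.9% lower in siEchs1 L2C than in siCon L2C. At E2C the blood markers summed to 6.59 to 11.4 FPKM in siEchs1 and 63.5 to 81.6 FPKM in siCon. Hba-a1 and Hba-a2 made up most of that siCon sum too, with means of 30.4 and 34.9 FPKM. The blood, oviduct and cumulus sums of siCon thus rested on few genes and do not stand for a cell type. The part of these markers in the results on droplet genes was not tested.

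The treatment experiment asked about sodium crotonate and sodium acetate at E2C. Both are sodium salts of short carboxylic acids, and crotonate differs from acetate by its longer, unsaturated carbon chain. Cidea did not pass the filter in these libraries and was at 0.05 and 0.2 FPKM after crotonate, 0.46 and 0.27 FPKM after acetate, and 0.21 and 0 FPKM after DMSO. Dgat1 passed it only through acetate, Dgat2 only through DMSO and Mgll only through crotonate, and these 3 are described with no test. Of the other 5 genes, 0 were called in each of the 3 comparisons by limma, and 0 had an unadjusted p under 0.05. Of the 13789 genes tested, 0.21% were called higher and 0.319% lower after crotonate than after DMSO, 0.00725% higher and 0.058% lower after acetate than after DMSO, and 1.02% higher and 0.841% lower after crotonate than after acetate. The medians over the 5 genes were -0.18, 0.0064 and -0.39 in these comparisons, next to -0.15, -0.08 and -0.09 over all genes.

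The lowest adjusted p of the 5 was 0.339, for Fabp5 after crotonate relative to acetate. Fabp5 was at 160.54 and 179.97 FPKM after crotonate, 288.22 and 212.48 FPKM after acetate, and 199.98 and 185.53 FPKM after DMSO. The crotonate libraries were below the acetate libraries, and the log2 difference of -0.54 had a 95% interval of -1.18 to 0.10. Mgll was at 1.07 and 0.72 FPKM after crotonate, 0.17 and 1.39 FPKM after acetate, and 0 and 0.2 FPKM after DMSO, overlapping between crotonate and acetate, with both DMSO values below both crotonate values. Mgll passed the filter only through crotonate, which favoured that order. How many of all genes have treatment groups that lie apart was not counted. Dgat2 was at 0.77 and 0.41 FPKM after crotonate, 0.15 and 0.59 FPKM after acetate, and 1.01 and 1.54 FPKM after DMSO. Both DMSO libraries were above the treated ones, with log2 differences of -0.52 for crotonate and -0.74 for acetate. With a constant of 0.1 before the logarithm these were -1.02 and -1.70. Dgat2 passed the filter only through DMSO, so this order was built in.

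Plin2 was at 4.29 and 2.94 FPKM after crotonate, 2.33 and 2.45 FPKM after acetate, and 2.82 and 3.75 FPKM after DMSO, with a crotonate minus acetate difference of 0.43 (interval -0.39 to 1.25). Dgat1 was at 0.3 and 1.62 FPKM after crotonate, 1.34 and 2.1 FPKM after acetate, and 0.45 and 0.64 FPKM after DMSO. Both acetate values of Dgat1 were above both DMSO values, with a log2 difference of 0.80, or 1.48 with a constant of 0.1 before the logarithm. Dgat1 passed the filter only through acetate, which favoured this order. Plin3 ranged between 0.81 and 3.13 FPKM, Pnpla2 between 1.23 and 7.16 FPKM and Lipe between 0.28 and 2.06 FPKM over the 6 libraries, with overlapping groups in all 3 comparisons for each. The intervals of the crotonate minus acetate differences of these 3 genes were -1.46 to 0.44, -1.73 to 0.96 and -1.29 to 0.93, and a p that misses the threshold with 2 libraries a group does not show that the treatments act alike.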

How the data were processed

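The libraries were made from polyA RNA with Smart-seq2 and sequenced in pairs of 150 nt, per the labels' protocols. The submitters' processing notes name cutadapt 1.16, STAR and mm10. For the STAR version and for the program and annotation behind the expression values, nothing is stated there. The authors deposited FPKM values, 1 table per library, scaled by gene length and library depth and holding no strand. Of 55228 versioned gene IDs in the treatment tables, 54486 are in GENCODE M21, which gave the exon positions used for overlaps. Symbols listed more than once or turned into dates were left out.

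The deposited values were turned into log2(FPKM + 1) and tested with limma 3.58.1 (trend, robust, two-sided, R 4.3.3) across all genes that reached 1 FPKM in 3 siRNA or 2 treatment libraries, 1 fit per experiment, with Benjamini-Hochberg adjustment over all genes tested and calls at an adjusted p under 0.05. Genes of the set that would fail this filter without the libraries of their highest group got no test, a rule added after the values were seen. The planned branch for counts was not needed, because no table holds counts. Groups and replicate numbers came from the titles; for siEchs1 L2C replicates 2 and 3 the table headers carry the other number. No 2 libraries shared more than 0.234% of their values. The fits were tested on simulated data. The 9 genes and all lists were chosen with earlier results of these data known. From the pathway lists, genes are named from up to 3 called genes per direction and list with the largest change, a mean of at least 5 FPKM in 1 group and groups that do not overlap. The genes most like Cidea are the 5 with the highest r and a mean of at least 5 FPKM, leaving out the set and provisional symbols. Promoter sequences are RefSeq's. Alternatives changed the normalization, filter, constant, variance trend, block, groups fitted and libraries.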

Additional observations from a re-analysis of the deposited data

Results flagged for a closer look

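The effect of the Echs1 siRNA differed between the stages for 3 of the 7 tested genes, by limma's test of the difference itself on the log2 scale, L2C minus E2C. In this test 1 of the 7 was called higher and 2 lower, against 5.65% and 11.6% of all genes. Plin2 differed by -2.60 (adjusted p = 0.00793), with an effect of 0.67 at E2C that did not pass (adjusted p = 0.206) and -1.92 at L2C. Dgat1 differed by -2.43 (adjusted p = 0.0131), with an effect of 1.82 at E2C and -0.61 at L2C, of which the latter did not pass (adjusted p = 0.204). Fabp5 differed by 1.95 (adjusted p = 0.0155), with an effect of -0.73 at E2C that did not pass (adjusted p = 0.129) and 1.22 at L2C. The oocyte transcripts, the transient 2-cell genes and the mitochondrial share also differed between the siRNA groups at L2C. At E2C 17 of 25 oocyte transcripts were called higher and 3 lower in siEchs1. Of 25 transient 2-cell genes, 15 were called lower and 0 higher there, while 11% of all genes were called higher and 9.31% lower. The part of these transcripts and of the mitochondrial share in the stage differences of Plin2, Dgat1 and Fabp5 was not tested.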

How the results depend on the processing

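Of 885 log2 differences recomputed under the alternatives for the tested genes, 813 kept their direction and their side of the threshold, 37 called values no longer passed, 12 newly passed and 23 changed sign. No called value changed sign. The calls of Dgat1 at E2C, of Plin2, Pnpla2 and Fabp5 at L2C, and of Plin2, Dgat1 and Fabp5 for the difference of effects were not lost under any alternative that could be fitted for the gene. Between the siEchs1 stages only the call of Lipe was kept under every alternative that could be fitted for the gene, and Dgat2 between the siCon stages passed after rescaling and with the compared groups fitted alone. Lipe passed the filter only through L2C libraries, so its call was built in. The number of genes called between the stages of siEchs1 embryos was 5, and 2 after quantile normalization or with a constant of 0.1, 1 with no filter or with the compared groups fitted alone, and 1 to 6 when single libraries were left out. The number called at E2C was 1 to 3 when single libraries were left out.

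The values that changed sign were all uncalled. Without single libraries the log2 differences spanned -0.69 to 0.72 for Plin3 and -0.45 to 1.69 for Dgat2 (the difference of effects), -0.69 to 0.017 for Plin2 (the siEchs1 stages), -0.11 to 0.31 for Plin2 and -0.48 to 0.14 for Lipe (crotonate minus DMSO), -0.18 to 0.72 for Plin3, -0.91 to 0.14 for Pnpla2 and -0.62 to 0.64 for Lipe (acetate minus DMSO), -0.97 to 0.20 for Pnpla2 and -0.81 to 0.45 for Lipe (crotonate minus acetate). After quantile normalization, Lipe was 0.041 (siEchs1 minus siCon at E2C), Fabp5 was 0.022 (crotonate minus DMSO) and untested Cidea was -0.036 (the siEchs1 stages). With a constant of 0.1, Plin3 was -0.013 (the difference of effects) and Lipe was -0.24 (acetate minus DMSO). After rescaling, Lipe was -0.025 (acetate minus DMSO). Leaving out single libraries also turned untested values. They spanned -0.14 to 0.48 for Mgll (siEchs1 minus siCon at E2C) and -0.25 to 0.76 for Dgat1 (crotonate minus DMSO). For crotonate minus acetate they spanned -0.34 to 0.31 for Mgll and -0.0093 to 0.46 for Dgat2. The cause was not tested. The treatment fits without a library rest on a group of 1, assumed to vary like the others.

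Same-numbered libraries did not clearly deviate together (r between -0.10 and 0.11 over 18 pairs of siRNA libraries, and between -0.10 and 0.16 over 6 pairs of treatment libraries). With 2 libraries a group the deviations mirror each other, so each treatment r occurs more than once. For siEchs1 L2C only the replicate numbers of the titles were checked. No pairing by number was seen, but a low r cannot show that there was none. With the replicate block, Dgat2 between the siCon stages was called (adjusted p = 0.0466), and no other call of the 7 genes changed. Depth is only roughly known, which limits the values under about 0.1 FPKM, and 3 libraries against 3 cannot give an exact permutation p under 0.1.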
